A study of Homo sapiens with 30 samples.

Results

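The comparison described here is that of p53 TM with wild type p53 in H1299 cells 6 h after transfection, over all genes. It rests on 6 of the 30 libraries of the series, 3 of each group, and 20875 genes passed the filter on low counts and were tested. H1299 is a lung carcinoma line that lacks p53. Wild type cultures received a vector for unmodified p53, and p53 TM cultures received a p53 vector with a single *O*6-methylguanine (O6-meG) at codon 248 on the transcribed strand, together with *O*6-benzylguanine (O6-bzG) at 10 µM. O6-bzG inactivates AGT, the repair protein encoded by MGMT that takes the methyl group off this base. RW mutant p53 (R248W), p53 O6-meG without O6-bzG and pGFP, which expresses GFP alone, are the other groups at 6 h and are used only to place p53 TM. All cultures were transiently transfected with vectors that lack a mammalian origin of replication, expressed GFP as well, and were sorted for GFP before RNA was prepared from each of 3 replicates. No wild type culture received O6-bzG, so the lesion, the drug and the mutant transcripts cannot be told apart in this comparison.

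Transcriptional mutagenesis (TM) is the insertion of a wrong base into RNA by an RNA polymerase that reads a damaged template. Across from O6-meG the polymerase can place uridine instead of cytidine, so that a part of the transcripts encodes tryptophan instead of arginine at this codon, in the surface by which p53 contacts DNA. Wild type p53 binds paired 10-base sites near its targets and induces genes of cell cycle arrest, apoptosis, DNA repair and metabolism, as well as its own inhibitor MDM2. It lowers many cell division genes indirectly, through p21 and the DREAM and RB complexes.

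Labels of 2 libraries at 6 h conflict. In the titles of replicate 2 of p53 TM and of replicate 2 of p53 O6-meG, the first part names 1 group, as the column names of the count table do, and the parentheses and the genotype field name the other. Groups were taken from the first part of the title. On the first principal component of the 15 libraries of 6 h, which held 83.9% of the variance, replicates 1, 2 and 3 of p53 TM lay at −10.72, −11.57 and −9.15. The wild type libraries lay between 19.4 and 21.54, the p53 O6-meG libraries between 11.44 and 16.46, and the pGFP and RW mutant libraries between −12.65 and −11.29. Counts below are given with and without replicate 2 of p53 TM, and with the reverse grouping only 11 genes were lower and 5 higher.

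**Figure D1:**
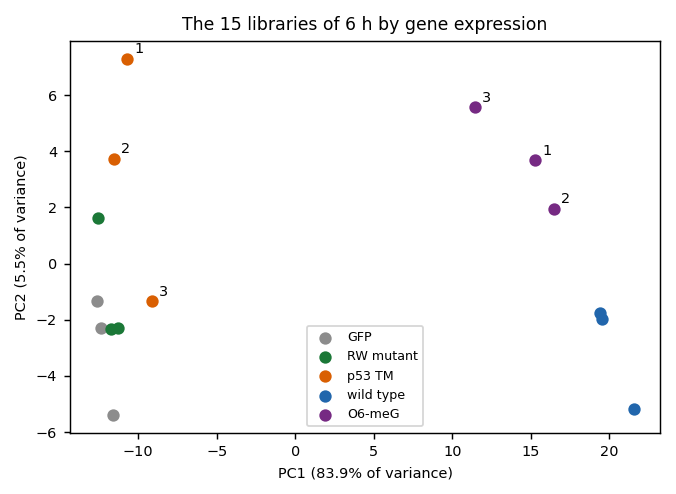
Principal components of the 15 libraries of 6 h (log2 CPM), each point 1 library, colored by group, with replicate numbers beside the p53 TM and p53 O6-meG libraries. Replicate 2 of p53 TM lies at −11.57 on the first component, beside the other p53 TM libraries and far from wild type p53 at 19.4 to 21.54.

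Between 43217874 and 71950532 reads were counted on genes in these 6 libraries (median 48156010). Levels below are counts scaled to library size (CPM) after TMM normalization, given in the order of replicates 1, 2 and 3, and are not corrected for gene length. KRT8, KRT18, VIM, CDH2 and AXL, markers of the carcinoma line, were present in all 6 libraries (VIM 3100 to 3410 CPM) and none of the 5 was called. Of 10 markers of other cell types, 5 had enough reads to be tested and none was called. PTPRC was at 0 in all 6 libraries, and CHGA reached at most 0.406 CPM.

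MGMT was at 14.7, 13.4 and 11.3 CPM in p53 TM and 13.6, 13.9 and 12.3 CPM in wild type p53 (log2 difference −0.01 ± 0.11 SE, adjusted *P* = 0.97, edgeR quasi-likelihood test). None of 9 genes of alkyl damage and mismatch repair was called, with a median log2 difference of 0.00.

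Most called genes were lower in p53 TM. At an adjusted *P* under 0.05, with no limit on the fold, 2261 genes (10.8% of those tested) were lower and 793 (3.8%) higher. Of the genes that were lower, 1071 (5.13% of those tested) differed at least 2-fold and 488 at least 4-fold, whereas only 22 of the higher genes (0.105%) reached 2-fold. The median log2 difference was −0.94 among the lower genes, 0.36 among the higher ones and −0.02 over all genes tested. The lower genes comprised 1876 protein-coding genes and 246 lncRNAs, and the higher ones 705 and 70. In 74 of the lower genes no read was counted in any p53 TM library. Of the 488 genes at least 4-fold lower, 235 had at most 3 counts in every p53 TM library. Their fitted differences are no measured folds. In bulk RNA, fewer cells that express a gene and less RNA per cell cannot be told apart.

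Without replicate 2 of p53 TM, 1787 genes were lower and 608 higher; 1739 of the 2261 (76.9%) and 569 of the 793 (71.8%) were called again, and all of them kept their direction. The balance of lower and higher calls depended on scaling and on the filter for low counts. Lower genes made up 74.0% of the calls with TMM and 61.7% with the size factors of DESeq2 (2005 lower, 1246 higher). With a mean of at least 1 CPM required, 1706 genes were lower and 1063 higher. With no filter on low counts, 2036 were lower and 572 higher. Higher genes numbered 1510 when only these 6 libraries were fitted, 1578 with the 15 libraries of 6 h and 1359 by the Wald test of DESeq2, and their number fell to 466 without replicate 1 of p53 TM and to 528 and 488 without replicates 2 and 3 of wild type p53.

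The 10 lower genes with the smallest *P* values were BTG2, GDF15, NKX2-5, PANK1, SPRY1, SESN1, CLP1, TP53I3, HOXC13 and RALGDS. BTG2 (chr1:203305491-203309602), an antiproliferative gene, was at 6.74, 6.8 and 8.86 CPM in p53 TM and at 101, 92.7 and 89.3 CPM in wild type p53, a 12.6-fold difference (log2 −3.65 ± 0.15, adjusted *P* = 1.0e-15). GDF15, which encodes a secreted stress cytokine, was at 0.97, 0.884 and 1.18 CPM against 18, 15.4 and 17.4 CPM (−4.05 ± 0.18, adjusted *P* = 1.0e-14). The groups were thus more than an order of magnitude apart in both genes, with little spread among replicates. NKX2-5, a homeobox transcription factor, was 7.47-fold lower (adjusted *P* = 1.4e-14), and PANK1, which makes the first step of coenzyme A synthesis, also 7.47-fold lower (adjusted *P* = 5.1e-14). SPRY1, an inhibitor of receptor tyrosine kinase signaling, was 11.4-fold lower (adjusted *P* = 7.5e-13), and SESN1, a stress-induced inhibitor of mTORC1, 4.45-fold lower (adjusted *P* = 1.0e-12). CLP1, an RNA kinase, TP53I3, a p53-induced oxidoreductase, HOXC13, a homeobox factor, and RALGDS, an exchange factor for Ral, were 2.85-, 6.72-, 4.68- and 6.78-fold lower. In NKX2-5, PANK1, SPRY1, HOXC13 and RALGDS the p53 TM levels did not differ by the test from those of RW mutant p53 (log2 differences of 0.04 ± 0.14, 0.08 ± 0.14, −0.21 ± 0.21, −0.01 ± 0.15 and 0.02 ± 0.17). The same held for CLP1 (0.23 ± 0.09) and TP53I3 (0.32 ± 0.16), whereas BTG2, GDF15 and SESN1 were called higher than in RW mutant p53.

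The 5 largest fitted falls among genes above 1 CPM in wild type p53 were of genes that were all but silent in p53 TM. Their order rests on counts near 0, so the bound or ratio of counts is given instead of the fitted fold, and a bound may lie below the measured fold of other genes. RGMA, which encodes a membrane-bound guidance molecule, had 0 reads in every p53 TM library against 86, 79 and 145 in wild type p53, at least 30.5-fold lower with the floor set at 3 counts in each library. ARHGAP27P2, a processed pseudogene, had 0 reads against 54, 48 and 76, at least 17.8-fold lower; reads of a pseudogene may be shared with its parent gene. NSG1, a gene of endosomal trafficking in neurons, had 2 reads in all against 1144, a ratio of 522 (95% exact interval 144 to 4310, counting error only). KLHL30, of the kelch family, had 4 against 1473 (ratio 336, 131 to 1230) and KCNS2, a modulatory potassium channel subunit, 4 against 1012 (231, 89.8 to 849). None of the 5 reached 0.1 CPM in any library of pGFP or RW mutant p53.

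The study's own list of high-confidence p53 targets induced at 6 h was chosen on these wild type libraries, so its direction here is no independent evidence. The copy used here holds 123 genes, slightly fewer than the study counts. All 123 were tested, 120 were lower and none higher, with a median log2 difference of −1.64. The fold by which wild type exceeded p53 TM had a lower quartile of 2.15, a median of 3.11 and an upper quartile of 5.27. ARC (−0.46 ± 0.21, adjusted *P* = 0.17) and CYP4F3 (−2.64 ± 1.08, adjusted *P* = 0.12) were among the 3 not called and were named after their values were seen. Without replicate 2 of p53 TM, 118 were lower.

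Counts in the gene lists that follow stand beside shares of 10.8% lower and 3.8% higher over all genes tested. Many members of the lists of p53 targets, such as CDKN1A, BBC3, MDM2 and GLS2, are also on the study's list. The counts of those lists are therefore no independent evidence either. Among genes that halt the cell cycle, 10 of 11 were lower, with a median log2 difference of −1.88. CDKN1A (chr6:36676460-36687337), which encodes the CDK inhibitor p21, was at 65.7, 50 and 57.7 CPM in p53 TM against 260, 242 and 262 CPM in wild type p53, 4.4-fold lower (−2.14 ± 0.16, adjusted *P* = 1.3e-10). RW mutant p53 held 42.7, 37.5 and 46.4 CPM of CDKN1A; all 3 libraries lay below p53 TM, but the difference did not pass the test (adjusted *P* = 0.48). PLK2, a polo-like kinase, was 3.68-fold lower (adjusted *P* = 2.3e-11). The single member that was higher, BTG1, an antiproliferative relative of BTG2, was at 49.9, 49.7 and 49.9 CPM against 41.1, 42.1 and 39.4 CPM (0.29 ± 0.08, adjusted *P* = 0.0084; without replicate 3 of wild type p53, 0.052).

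Of 19 apoptosis genes, 17 were lower and none higher, with a median of −1.11. BBC3, which encodes the BH3-only protein PUMA, was at 2.08, 1.77 and 2.69 CPM against 14.2, 12.8 and 14.9 CPM, 6.35-fold lower (adjusted *P* = 2.3e-11). FAS, the death receptor, was at 16.8, 15.8 and 16.6 CPM against 65.7, 64.5 and 63.7 CPM, 3.94-fold lower (adjusted *P* = 9.8e-11). In both genes the 3 p53 TM libraries lay well below all wild type libraries. TNFRSF10C, a decoy receptor of TRAIL, was not called (0.02 ± 0.19).

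Of 6 genes of the p53 feedback loop, 3 were lower and none higher, with a median of −0.52. MDM2 (chr12:68808177-68845544), the ubiquitin ligase that removes p53, was at 286, 300 and 348 CPM in p53 TM and 1280, 1240 and 1360 CPM in wild type p53, 4.16-fold lower (−2.06 ± 0.15, adjusted *P* = 8.9e-11). PHLDA3, an inhibitor of AKT, was 7.83-fold lower (adjusted *P* = 9.9e-08), and PPM1D, the phosphatase WIP1, 1.74-fold lower (adjusted *P* = 8.6e-07). RCHY1, another ubiquitin ligase of p53, was not called (−0.10 ± 0.11).

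Of 9 DNA repair genes, 6 were lower, by smaller amounts (median −0.33). POLH, the translesion polymerase eta, was at 60.9, 67 and 74.6 CPM against 206, 198 and 225 CPM, 3.11-fold lower (adjusted *P* = 1.1e-07). XPC and DDB2, which recognize lesions in nucleotide excision repair, were 1.87- and 1.76-fold lower (adjusted *P* = 1.9e-08 and 3.0e-07). FANCC, of the Fanconi anemia complex, was not called (−0.02 ± 0.11).

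In metabolism and autophagy, 11 of 16 genes tested were lower and none higher, with a median of −0.97. GLS2, the mitochondrial glutaminase, fell most: it was at 0.677, 0.909 and 0.802 CPM in p53 TM and 16.9, 17.1 and 20.8 CPM in wild type p53, 22.9-fold lower (−4.52 ± 0.33, adjusted *P* = 1.1e-10), and RW mutant p53 held 0.558 to 0.786 CPM. FDXR, the mitochondrial ferredoxin reductase, was at 25.9, 30.1 and 37.5 CPM against 195, 180 and 190 CPM, 6.04-fold lower (adjusted *P* = 3.9e-11). Of 15 cell surface and signaling targets, 9 were lower (median −0.89). EPS8L2, an actin regulator, was 5.02-fold lower and EPHA2, a receptor tyrosine kinase, 2.13-fold lower (adjusted *P* = 3.1e-08 and 1.7e-07).

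Of 11 p53-induced lncRNAs listed, 7 were tested and 4 were lower (median −0.64). MIR34AHG (chr1:9148011-9198906), the host transcript of miR-34a, was at 7.01, 11 and 10.6 CPM against 32.9, 29.6 and 34.6 CPM, 3.4-fold lower (adjusted *P* = 7.7e-06). TP53TG1 and PVT1 were 2.17- and 1.56-fold lower (adjusted *P* = 7.8e-08 and 9.0e-05), while LINC-PINT was not called (0.15 ± 0.11). Libraries were stranded, but no source used here says whether reads were counted by strand, and values of genes with a neighbor on the opposite strand, as MIR34AHG and LNCTAM34A are to each other, are therefore uncertain.

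**Figure D2:**
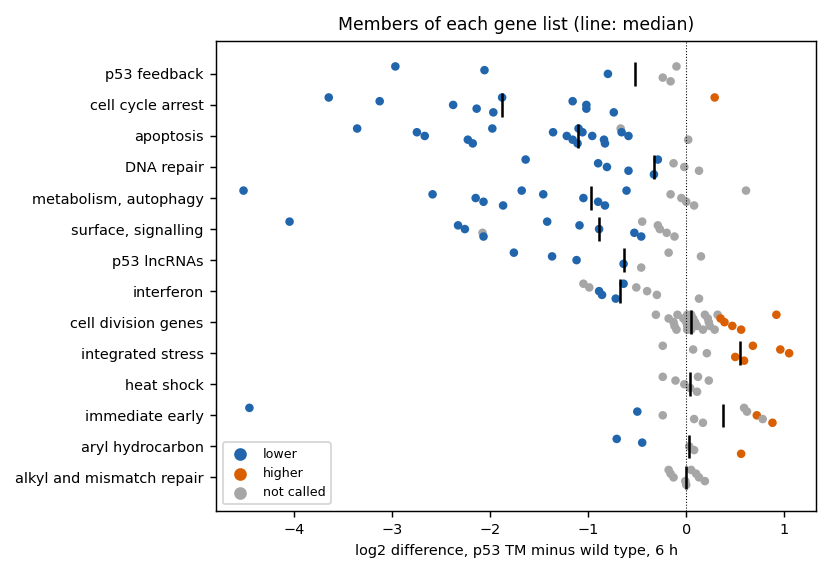
Log2 difference between p53 TM and wild type p53 at 6 h for each tested member of 14 gene lists, 1 point a gene, with the median as a line. The cell cycle arrest list lies lowest with a median of −1.88, the cell division list is centered at 0.05, and the integrated stress list lies at 0.54.

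The higher genes showed small, even differences. FAM111B, a replication-associated protease, led them by *P* value, at 114, 123 and 105 CPM in p53 TM and 68.8, 65.9 and 63.2 CPM in wild type p53 (0.79 ± 0.08, adjusted *P* = 2.9e-08). FICD, which modifies the chaperone BiP in the endoplasmic reticulum, was at 26.9, 24.8 and 25.7 CPM against 15.8, 13.6 and 13.2 CPM (0.86 ± 0.09, adjusted *P* = 4.9e-08). CCNE2, which encodes cyclin E2, was at 146, 155 and 125 CPM against 79.7, 79.6 and 65.4 CPM (0.92 ± 0.10, adjusted *P* = 1.9e-07). These 3 genes and SLC2A3, a glucose transporter, were called in the same direction even with the reverse grouping of the conflicting libraries. The remaining 6 of the first 10 were LINC02432, MBD4, ZNF10, C3orf38, RNF103 and ZNF506, with log2 differences between 0.50 and 0.94. MBD4 is a glycosylase that removes mismatched thymine, RNF103 is a ubiquitin ligase of the endoplasmic reticulum, and ZNF10 and ZNF506 are zinc finger genes. Of the first 10, all except LINC02432 were called lower in wild type p53 than in pGFP. Compared with pGFP, p53 TM was called higher only in FAM111B, CCNE2 and LINC02432.

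The 5 genes above 1 CPM with the largest positive differences from wild type p53 were TENT5C, DLL4, NR1H4, HERPUD1 and the lncRNA ENSG00000267481. TENT5C, a poly(A) polymerase, was at 1.98, 2.87 and 2.78 CPM against 1.12, 0.545 and 0.751 CPM (1.67 ± 0.34, adjusted *P* = 8.3e-04). DLL4, a Notch ligand, and NR1H4, the bile acid receptor, differed by 1.54 ± 0.27 and 1.20 ± 0.16 on the log2 scale (adjusted *P* = 1.5e-04 and 3.2e-06). HERPUD1, of endoplasmic reticulum-associated degradation, was at 91.4, 58 and 69.8 CPM against 31.1, 28.8 and 36.3 CPM (1.19 ± 0.22, adjusted *P* = 2.0e-04). Its lowest p53 TM library still exceeded every wild type library, though the p53 TM libraries themselves spread widely. Compared with pGFP, p53 TM was called higher in DLL4 and NR1H4 and was not called in TENT5C, HERPUD1 and ENSG00000267481. Wild type p53 was called below pGFP in NR1H4 and ENSG00000267481 (log2 −0.49 ± 0.16 and −0.87 ± 0.22).

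Of 31 genes listed as cell division genes that p53 lowers, 5 were higher (CCNE2, CDC25A, FBXO5, STOX1 and CCSAP) and none lower, where 3.8% of all genes tested were higher. The study names CCNE2, FBXO5, STOX1 and CCSAP in its account of genes whose lowering by p53 was weakened by TM at 24 h. CDK1, E2F8 and GFI1 of the list are named there too, so the counts of this list are no independent evidence. The median log2 difference of the list was 0.05, against −0.02 over all genes tested. CDC25A, a phosphatase that activates CDKs, was at 167, 159 and 149 CPM against 130, 121 and 111 CPM (0.39 ± 0.08, adjusted *P* = 6.7e-04). FBXO5, an inhibitor of the anaphase-promoting complex, was at 67.8, 65.9 and 62.4 CPM against 48.2, 43.6 and 41.1 CPM (0.56 ± 0.12, adjusted *P* = 8.6e-04). CCNB1, the mitotic cyclin, was not called (0.00 ± 0.13).

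Of 8 genes of the integrated stress response, 5 were higher and none lower (median 0.54), where 3.8% of all genes tested were higher. ATF4, its central transcription factor, was at 262, 241 and 232 CPM against 174, 175 and 170 CPM (0.50 ± 0.10, adjusted *P* = 8.4e-04). ASNS, asparagine synthetase, was at 6.41, 10.1 and 9.84 CPM against 3.78, 4.02 and 4.82 CPM (1.05 ± 0.20, adjusted *P* = 2.6e-04). PPP1R15A, which restores translation by way of eIF2α, differed by 0.59 ± 0.12 (adjusted *P* = 6.9e-04), DDIT3 (CHOP) by 0.96 ± 0.23 (adjusted *P* = 0.0039) and CHAC1, a glutathione-degrading enzyme, by 0.68 ± 0.15 (adjusted *P* = 0.002). PSAT1, of serine synthesis, was not called (0.07 ± 0.07). Against RW mutant p53, only 1 of the 8 (CHAC1) was called higher, where 0.182% of all genes tested were. Compared with pGFP, p53 TM was called higher in CHAC1 and was not called in ATF4, ASNS and PPP1R15A. Wild type p53 was called below pGFP in ASNS (log2 −0.61 ± 0.20) and was not called in ATF4, PPP1R15A and CHAC1. None of 7 heat shock genes was called (median 0.04).

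Smaller lists were mixed, where 10.8% of all genes tested were lower and 3.8% higher. Of 10 interferon-response genes tested, 4 were lower and none higher (median −0.68): ISG15, a ubiquitin-like modifier, was at 58.1, 53.7 and 59 CPM against 92.8, 94.4 and 94.8 CPM (−0.72 ± 0.10, adjusted *P* = 9.5e-06), and IFI44, IFIT3 and IFIH1 were the others. Of 10 immediate early genes, 2 were lower and 2 higher. EGR2, a zinc finger factor, was at 0.158, 0.123 and 0.178 CPM against 3.13, 3.27 and 3.98 CPM, 22-fold lower (adjusted *P* = 1.5e-09). FOS, a subunit of AP-1, was at 33.7, 26.1 and 30.7 CPM against 17.5, 15.6 and 16.3 CPM (0.88 ± 0.16, adjusted *P* = 1.7e-04). Among 5 aryl hydrocarbon receptor targets, CYP1B1, a monooxygenase, was lower (−0.71 ± 0.13, adjusted *P* = 1.4e-04), TIPARP, a mono-ADP-ribosyltransferase, was higher (0.56 ± 0.08, adjusted *P* = 2.0e-05), and AHRR, the repressor of the receptor, was lower by a narrow margin (−0.45 ± 0.15, adjusted *P* = 0.046; 0.13 without replicate 2 of p53 TM). Leaving out that library took 1 call from each of the apoptosis, DNA repair, surface, cell division, immediate early and aryl hydrocarbon lists and none from the integrated stress or interferon lists.

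Next to RW mutant p53, which carries the same amino acid change in every transcript, p53 TM differed in few genes: 38 (0.182% of those tested) were higher and 6 (0.0287%) lower. At an unadjusted *P* under 0.05 the counts were 673 and 617. Without replicate 2 of p53 TM, 34 were higher and 1 lower, and 30 of the 38 and 1 of the 6 (AMPD3) were called again. MDM2, ACTA2, ZNF79, RPS27L, ZNF718, LINC02432, CCDC28A and OSER1 lost the call. Without replicates 1 and 3 of p53 TM the higher genes numbered 19 and 21, and without replicate 1 the lower ones 3. Without replicates 1 and 2 of RW mutant p53, alternatives chosen after the values were seen, 17 and 21 were higher, and without its replicates 1 and 3, 3 and 2 were lower. Both comparisons use the same p53 TM libraries, so the values of the 38 genes in each are set side by side and not tested against each other. Of the 38, 19 were lower than in wild type p53, 16 were higher than in wild type p53, and 3 (ATF3, ARC and CDKN2D) were not called against it. These genes were named after their values were seen.

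The 19 genes above RW mutant and below wild type p53 included known p53 targets. A level between the groups follows from this choice, and the values describe only how far up it lay: the p53 TM mean was between 4.74% and 37.7% (median 24.2%) of the way from the RW mutant to the wild type mean. MIR34AHG was at 0.0797, 0.15 and 0.0589 CPM in RW mutant p53, so that its p53 TM mean of 9.53 CPM was 29.4% of the wild type mean (log2 difference from RW 6.63 ± 0.47, adjusted *P* = 1.6e-09). Its neighbor LNCTAM34A was at 0.383, 0.614 and 0.981 CPM in p53 TM, against 0, 0 and 0.0196 CPM in RW mutant and 1.82, 1.43 and 1.96 CPM in wild type p53. AEN, a p53-induced exonuclease, was at 140, 133 and 133 CPM in p53 TM, between 67.9, 75.2 and 69.8 CPM and 251, 241 and 231 CPM. SESN2, a paralog of SESN1, was at 60.6, 52.6 and 57.6 CPM, between 29.6, 28.8 and 32.5 CPM and 102, 103 and 99.9 CPM. DDB2 was at 46.6, 50.3 and 53.1 CPM, between 30.7, 27.3 and 27.4 CPM and 88, 84.7 and 90.7 CPM. AEN, SESN2, DDB2 and LNCTAM34A thus lay highest (37.7%, 37.5%, 36.2% and 37.7%). BTG2 and GDF15, the most significant falls against wild type p53, lay lowest (5.32% and 4.74%), and MDM2, SESN1, FDXR, PHLDA3, ACTA2 and TP53INP1 lay between 10.3% and 13.6%. PPM1D, RPS27L, PLK3, TNFRSF10B, ZNF79 and ENSG00000253878.5 made up the rest.

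**Figure D3:**
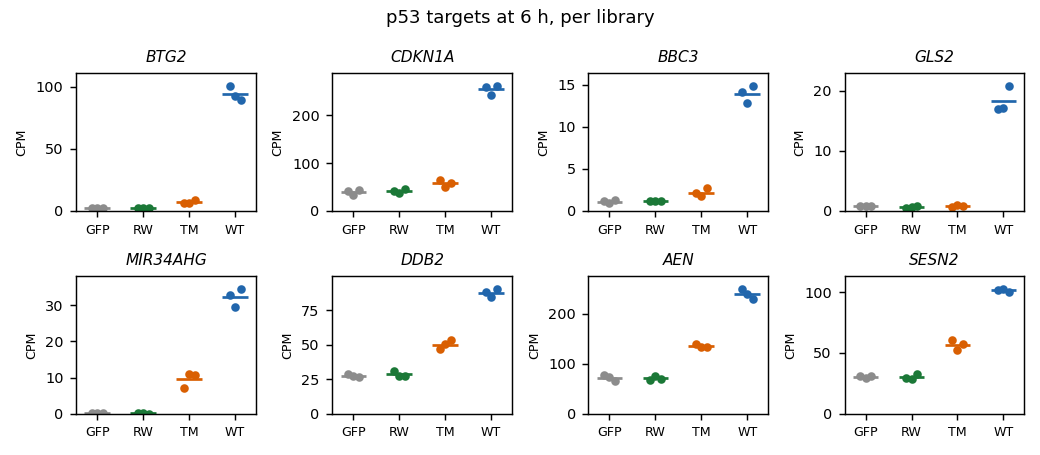
Levels of 8 p53 targets at 6 h in CPM on linear axes from 0, each point 1 library and each bar the mean of 3, for pGFP (GFP), RW mutant p53 (RW), p53 TM (TM) and wild type p53 (WT). On these axes BTG2, CDKN1A, BBC3 and GLS2 lie near RW mutant p53, whereas AEN, DDB2 and SESN2 lie 36.2% to 37.7% of the way from RW mutant to wild type p53 and MIR34AHG 29.2%. BTG2 was nonetheless called higher in p53 TM than in RW mutant p53 (log2 difference 1.53 ± 0.16).

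The 16 genes above both wild type and RW mutant p53 were CHAC1, KLHL24, HBP1, BTG1, PCK2, GABARAPL1, CHMP1B, OSER1, CCDC28A, ZNF718 and the lncRNAs LINC02432, LINC01419, LINC01608, LINC02972, LINC00355 and NUP50-DT. LINC02432 was at 39.2, 39.9 and 39.4 CPM in p53 TM, 20.9, 20.5 and 20.8 CPM in wild type p53 and 27.8, 24.1 and 28.8 CPM in RW mutant p53, and the log2 differences were 0.93 ± 0.11 and 0.56 ± 0.10. KLHL24, of the kelch family, was at 42.6, 36.5 and 38.7 CPM against 26.1, 27.1 and 26.7 CPM and 23.7, 24 and 28.1 CPM. GABARAPL1, an autophagosome protein, was at 52.2, 45.3 and 49.5 CPM against 41.7, 35.1 and 38.5 CPM and 39, 34.2 and 39.2 CPM. CHAC1 was at 26.9, 22.9 and 25.3 CPM against 13.1, 15.8 and 17.8 CPM and 11.3, 13.3 and 17.7 CPM.

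The 6 genes below RW mutant p53 were AMPD3, RGS4, VXN, CYP1B1, PRDM10 and C2CD2, and all except VXN were also called lower against wild type p53. VXN was at 2.14, 1.97 and 2.09 CPM in p53 TM against 2.8, 2.98 and 2.33 CPM in wild type p53 (log2 −0.38 ± 0.18, adjusted *P* = 0.17). CYP1B1 was at 15.6, 13.8 and 13 CPM in p53 TM, 20.1, 25.8 and 23.6 CPM in wild type p53, 20.1, 23.5 and 22.8 CPM in RW mutant p53 and 19.8, 22.9 and 20.9 CPM in pGFP. PRDM10 was at 31.6, 28.3 and 30.8 CPM, against 39, 36.2 and 36.5 CPM and 37.5, 37.9 and 42.9 CPM. AMPD3, AMP deaminase of red cells, was below 0.2 CPM in every p53 TM library. In CYP1B1 and PRDM10 the p53 TM libraries lay below every library of both other p53 groups. Only p53 TM cultures received O6-bzG, and what the drug does in cells without the lesion was not measured.

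**Figure D4:**
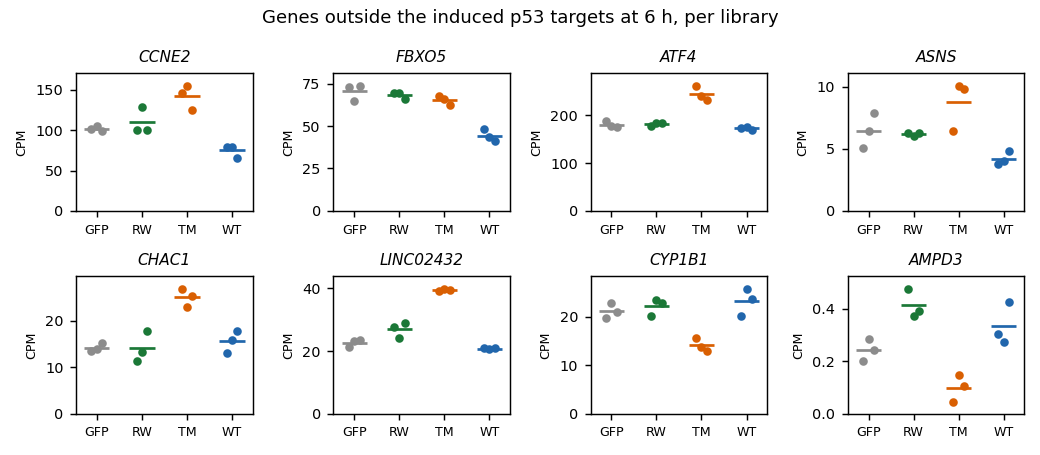
Levels of 8 genes other than induced p53 targets at 6 h in CPM on linear axes from 0, each point 1 library and each bar the mean of 3, for pGFP (GFP), RW mutant p53 (RW), p53 TM (TM) and wild type p53 (WT). CHAC1 and LINC02432 are higher in p53 TM than in both other p53 groups and CYP1B1 and AMPD3 lower, whereas FBXO5 at 62.4 to 67.8 CPM lies near RW mutant p53.

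The difference between p53 TM and wild type p53 was not the same at 24 h. In 433 genes (2.07% of those tested) it was more negative at 6 h and in 80 (0.383%) more positive, by a test of the difference between the times. With the replicate number as a block these counts together rose from 513 to 775, and without replicate 2 of p53 TM they fell to 339. BTG2 differed by −3.65 at 6 h and −0.52 at 24 h, GDF15 by −4.05 and −0.25, and MDM2 by −2.06 and −0.15 on the log2 scale. CDKN1A differed by −2.14 and −0.78, GLS2 by −4.52 and −0.87, and PLK2 by −1.88 and −1.37; of these 6 genes PLK2 alone did not pass the test of the difference between times (adjusted *P* = 0.13). The medians were −1.11 at 6 h and −0.47 at 24 h for the apoptosis list and −0.33 and 0.08 for the DNA repair list. In the test between the times, 12 of 19 apoptosis genes and 4 of 9 DNA repair genes were more negative at 6 h and none more positive. At 24 h, when 12.6% of all genes tested were lower and 9.82% higher, 10 of 19 apoptosis genes and 0 of 9 DNA repair genes were lower. The surface and signaling list had 12 of 15 lower at 24 h, and between the times 2 of 15 were more negative at 6 h and none more positive. This list holds ATF3, BMP7, CAV1 and VDR, which the study names as repressed late in these same libraries. It also holds ADGRG1 and PRDM1, named there as repressed at both times, so its pattern over time is no independent evidence. In the cell division list 13 of 31 were higher at 24 h, but none of the 31 passed the test between the times in either direction. Some members of that list were named by the study from the 24 h libraries, so its count at 24 h is no independent evidence.

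Reference promoters of the genes tested were searched for the paired p53 motif, because p53 binds DNA as a pair of dimers. Each unit of the pair has 10 bases with a core of 4 (CNNG with A or T at both inner places) that had to be present in full between 3 purines and 3 pyrimidines. At most 1 mismatch outside the core was allowed per unit, with at most 3 bases between the units, and the motif reads alike on both strands. The windows, from RefSeq (GRCh38.p14), run from 250 bases before to 50 after each start. Of the protein-coding genes tested, 11542 of 14345 (80.5%) had a window, and 0.355% of these held a pair. Only 77.6% of the lower genes had one, so a comparison of shares was void. Pairs were listed only for genes called against wild type p53, and not for every chromosome. Among the genes named above within these limits that had a window, 3 held a pair. They are shown with the 10-base units in capitals. That of LNCTAM34A lies at chr1:9182144-9182163 on the plus strand, that of DDB2 at chr11:47214979-47214999 on the plus strand and that of GLS2 at chr12:56488113-56488132 on the minus strand.
LNCTAM34A: GAACAAGCCCAGGCAAGCCC
DDB2: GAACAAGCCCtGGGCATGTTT
GLS2: AGGCTTGCTGGGGCATGCGC
The units of LNCTAM34A and GLS2 adjoin, and those of DDB2 are 1 base apart. In p53 TM, LNCTAM34A and DDB2 lay 37.7% and 36.2% of the way from RW mutant to wild type p53, while GLS2 did not differ by the test from RW mutant p53 (0.19 ± 0.46).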

How the data were processed

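RNA was sequenced from 30 cultures in 10 groups of 3. The authors aligned single reads to hg38 with STAR v2.5.3a, counted them on GENCODE v27 genes with featureCounts (Subread v1.5.2) and deposited raw counts per gene, without normalization; the strand setting is not given in the sources used here. A deposited normalized table was not used here. In R 4.3.3, edgeR 4.0.16 fitted all 30 libraries together (filterByExpr, TMM, quasi-likelihood test), with Benjamini-Hochberg adjustment across the 20875 genes tested. A call is an adjusted *P* under 0.05. Standard errors come from the estimate and its F statistic. Total counts were 32302699 to 71950532 a library. Coordinates and symbols are of GENCODE v44 (38904 of 39359 identifiers matched).

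Named genes are, among those called with and without replicate 2 of p53 TM and not overlapping between groups, the 10 with the smallest *P* on each side and the 5 largest changes on each side with at least 1 CPM in the higher group, together with examples of the lists and MGMT; others are marked where they appear. The members and lists were chosen with earlier results of these data known. Alternatives were other scaling, filters, DESeq2 1.42.0, fits of fewer libraries, a replicate block, the reverse grouping and omitted libraries. Replicate numbers paired p53 TM with wild type p53 in part: residuals of all 3 same-numbered pairs correlated above 0.1 (0.27 to 0.616). Replicate 1 of p53 TM with 2 of wild type p53 (0.154), and 2 with 1 (0.139), also exceeded 0.1. The other differently numbered pairs lay between −0.414 and −0.331. Except where the block is named, counts and *P* values come from fits without it. The series calls the replicates biological without saying what was separate, so *P* values measure only the spread among these libraries. No libraries of a group agreed within sampling noise (lowest chi-square per degree of freedom over all 6 h pairs 5.115). The code was tested on simulated data. Some items are not reported here.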

Additional observations from a re-analysis of the deposited data

Results flagged for a closer look

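The difference between p53 TM and wild type p53 itself differed between 6 h and 24 h in 513 genes, by edgeR's quasi-likelihood test of the difference between the times. The values that follow are the log2 difference at 6 h minus that at 24 h for the genes named above that passed this test. Where it was more negative at 6 h by at least 1.5, it was BTG2 −3.13, GDF15 −3.79, NKX2-5 −1.79, PANK1 −2.04, SPRY1 −2.13, SESN1 −2.02, TP53I3 −2.42, RALGDS −1.72, MDM2 −1.91, PHLDA3 −3.29, BBC3 −1.90, FAS −1.79, POLH −1.58, FDXR −2.42, GLS2 −3.65, EPS8L2 −1.90, MIR34AHG −2.07, EGR2 −2.63, LNCTAM34A −1.57, TP53INP1 −1.90, ENSG00000253878.5 −1.85 and ACTA2 −2.19. It was smaller, between −0.39 and −1.36, in others: CLP1 −0.75, HOXC13 −1.24, PPM1D −0.77, CDKN1A −1.36, XPC −1.05, DDB2 −0.90, TP53TG1 −0.96, SESN2 −0.73, PLK3 −0.69, TNFRSF10B −1.06, ZNF79 −1.18, PRDM10 −0.51, GABARAPL1 −0.39, RPS27L −0.99, AEN −0.67 and C2CD2 −0.41. For the genes nearly silent in p53 TM at 6 h the fitted values were RGMA −7.73, NSG1 −7.52, ARHGAP27P2 −7.44, KLHL30 −6.42 and KCNS2 −5.29, which depend on counts near 0 and are no measured folds. On the other side were LINC02432 0.63, PSAT1 0.36, TIPARP 0.43, FOS 1.04, ARC 1.07, LINC00355 0.78 and CHAC1 0.88. In TIPARP, FOS, LINC00355 and CHAC1, p53 TM was higher than wild type p53 at 6 h and not called at 24 h. ARC and PSAT1 were not called at 6 h and were lower at 24 h (−1.53 and −0.28), and LINC02432 was higher at both times. Of the genes with negative values, GABARAPL1 was higher in p53 TM at both times (0.35 at 6 h, 0.74 at 24 h). PRDM10 was lower at 6 h (−0.30) and higher at 24 h (0.22). Groups of 3 replicates are too small for a test of outlying libraries.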

How the results depend on the processing

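Lower genes against wild type p53 numbered 2261 and stayed between 1704 and 2614 in every alternative except the reverse grouping of the conflicting libraries, which left 11. Higher genes numbered 793, and 1246 with size factors of DESeq2, 1359 with its Wald test, 1510 with only the 6 libraries, 1578 with only the 15 libraries of 6 h and 5 with the reverse grouping. Leaving out 1 library gave 1704 to 2016 lower and 466 to 701 higher genes. The replicate block gave 2604 lower and 1015 higher genes. A required mean of 1 CPM gave 1706 and 1063, and no filter on low counts 2036 and 572. Against RW mutant p53, 6 genes were lower and 38 higher, and 24 and 77 by the Wald test, 0 and 10 with the reverse grouping, and 1 and 31 without both conflicting libraries; the block gave 13 and 51, but residuals of the first p53 TM and RW mutant pair correlated at −0.182, so the numbers do not pair these groups. Leaving out 1 library, those of RW mutant p53 included, gave 1 to 6 lower and 17 to 36 higher genes. The 513 genes that changed between the times were 775 with the block, 14 with the reverse grouping and 310 without both conflicting libraries; leaving out 1 library, those of 24 h included, gave 339 to 601. Of 62 named genes called against wild type p53, 57 lost the call with the reverse grouping and at most 2 in any other alternative. None reversed. Many of these genes were chosen because they were also called without replicate 2 of p53 TM, so their retention does not describe all called genes. Over all called genes, 76.9% of the lower and 71.8% of the higher were called again without that library. The cause of these shifts was not tested. Which of depth and replication limits small differences was not tested, and no wild type cultures were given O6-bzG.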
